A study of Homo sapiens with 16 samples.

Results

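The genes of the human mitochondrial genome were followed through a retinoid experiment in OCI-AML3 cells, an established acute myeloid leukemia (AML) cell line. They were taken as every row whose symbol starts with MT-, which gave 37 of the 62700 genes in the count table. These 37 are the 13 protein genes, the 2 ribosomal RNA (rRNA) genes and the 22 transfer RNA (tRNA) genes, and nuclear copies such as MTND2P28 were kept out. The study asked how all-trans retinoic acid (ATRA) and the synthetic retinoid AM80, alone or with inhibitors of chromatin enzymes, change transcription in cells of this line. Bulk RNA-seq was done 3 h after treatment. The 4 libraries named Untreated had no compound. The 3 ATRA libraries had ATRA at 0.1 µM, and the 3 AM80 libraries had AM80 at 0.1 µM. The 3 ATRA_GSK-LSD1_MB3 libraries and the 3 AM80_GSK-LSD1_MB3 libraries had the same retinoid at the same dose together with MB3, which inhibits the acetyltransferase GCN5, at 100 µM and GSK-LSD1, which inhibits the demethylase LSD1, at 0.1 µM. They are called the combinations here, and GSK-LSD1 with MB3 the inhibitors. No group received the inhibitors without a retinoid or only 1 of them, so a change on their addition belongs to the pair on top of a retinoid.

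The mitochondrial genome is a small circle present in many copies per cell. It is read from both strands into long transcripts, and the tRNAs that punctuate these transcripts are cut out so that the mRNAs and rRNAs between them are released. Its protein genes all encode subunits of respiratory complexes I, III, IV and V, while its rRNAs and tRNAs serve the ribosomes that translate them inside the organelle. All other subunits, and the polymerase, nucleases and tRNA synthetases that work there, come from the nucleus. Mature mitochondrial tRNAs are short and do not carry the poly(A) tail that mRNA library kits select for, so reads over a tRNA gene can come from mature tRNA, from precursors or from the ends of neighbouring transcripts.

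The libraries held 11963898 to 33789718 counted reads. Depth moved with the groups: the untreated libraries had at most 17929315 reads, those with a retinoid alone 17593341 to 33789718, and the combinations 14118272 to 18884805. Of the 8 myeloid markers checked, all passed the filter on low counts, with MPO (at most 80 reads per library) and CD68 (at most 107) the lowest, and CD33, SPI1, CEBPA and LYZ were at 1254 normalized counts or more in every library. Of the lymphoid and erythroid markers, CD3D, MS4A1 and HBA1 had no read. Nothing in the labels says that replicates came from separate cultures, so p-values measure the spread between these libraries, which may be technical. In bulk RNA fewer cells of a kind and less RNA per cell cannot be told apart.

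The largest changes were in short tRNA genes. Shown here are the 7 tRNA genes whose counts fell when the inhibitors were added to either retinoid, and MT-TK, the tRNA gene called higher with both. Sequences are of the RNA strand in DNA letters from the GENCODE 29 transcripts (GRCh38), all on the plus strand, and capitals mark the anticodon, the bases that pair with the codon.
MT-TF (phenylalanine): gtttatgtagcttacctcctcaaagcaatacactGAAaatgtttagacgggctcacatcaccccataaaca
MT-TW (tryptophan): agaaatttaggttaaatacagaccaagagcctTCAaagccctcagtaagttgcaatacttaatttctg
MT-TG (glycine): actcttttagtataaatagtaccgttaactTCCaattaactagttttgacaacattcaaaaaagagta
MT-TR (arginine): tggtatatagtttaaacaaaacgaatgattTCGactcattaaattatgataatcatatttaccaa
MT-TH (histidine): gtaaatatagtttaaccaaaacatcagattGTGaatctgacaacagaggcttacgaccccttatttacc
MT-TS2 (serine): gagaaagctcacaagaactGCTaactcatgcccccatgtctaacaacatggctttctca
MT-TL2 (leucine): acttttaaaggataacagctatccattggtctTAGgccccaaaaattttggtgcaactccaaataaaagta
MT-TK (lysine): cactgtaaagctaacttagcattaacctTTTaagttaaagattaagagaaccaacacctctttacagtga

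In the annotation MT-TF is at chrM:577-647, just before the 12S rRNA gene MT-RNR1, and MT-TW at chrM:5512-5579 follows MT-ND2. MT-TG (chrM:9991-10058) and MT-TR (chrM:10405-10469) lie on either side of MT-ND3. MT-TH (chrM:12138-12206), MT-TS2 (chrM:12207-12265) and MT-TL2 (chrM:12266-12336) follow each other without a gap and fill the whole stretch between MT-ND4 and MT-ND5. MT-TK (chrM:8295-8364) lies between MT-CO2 and MT-ATP8. These tRNA genes are each 1 exon, 59 bases long in MT-TS2 and 65 to 71 bases in the others, so only reads shorter than that can lie wholly inside one.

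Levels were compared between genes as reads per kilobase of gene, scaled to the counted reads of the library (RPKM), computed from the recovered reads. Such a value depends on which RNAs a library captured as well as on their amount in the cell. In the untreated cells the 16S rRNA gene MT-RNR2 was the highest at 11156 ± 1306 RPKM (SD, n = 4), and the next member, MT-CO1, did not reach its range. The genes of complex IV and of the ATP synthase came next: MT-CO1 (7176 ± 593), MT-CO3 (6772 ± 739.9), MT-ATP6 (5952 ± 406), MT-CO2 (5807 ± 516) and MT-ATP8 (5669.9 ± 172), and each of these overlapped the next in this order. Among the complex I genes MT-ND4 was at 5087 ± 468, MT-ND1 at 3739 ± 322 and MT-ND4L at 3131 ± 402, while MT-ND2, MT-ND5, MT-ND3 and MT-ND6 stood between 1605 and 2196. MT-CYB, the one mitochondrial gene of complex III, was at 2289.9 ± 196. The 12S gene MT-RNR1 was at 1606 ± 844, with a highest library of 2864. MT-ND6, the only protein gene on the minus strand, overlapped MT-RNR1 in level.

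**Figure D1:**
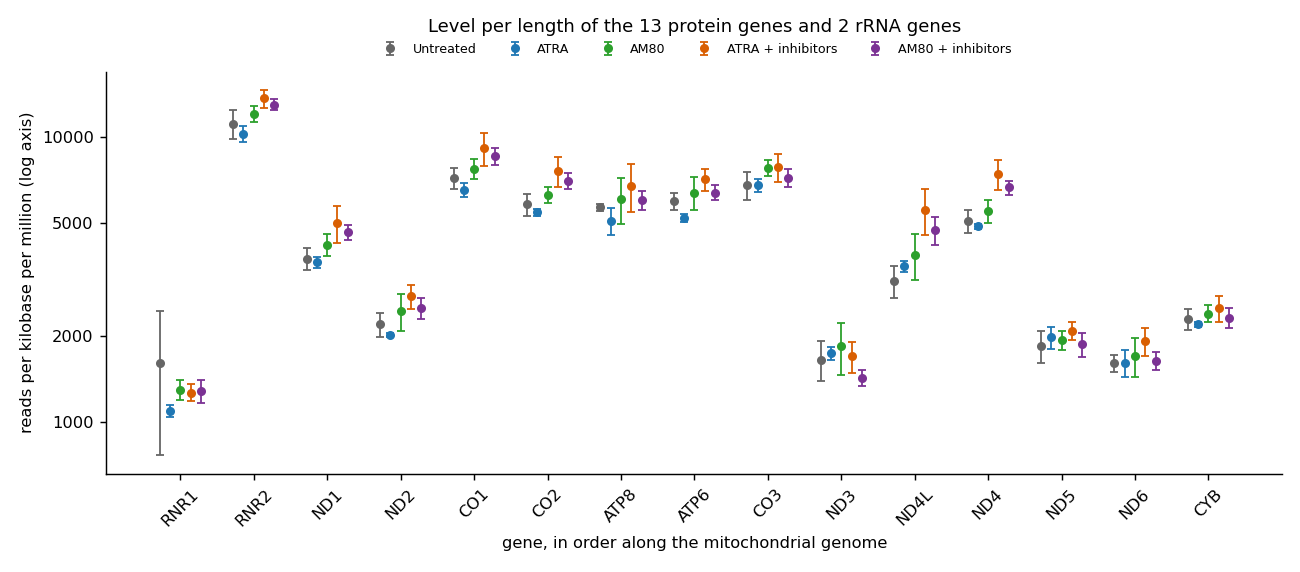
Level per length (RPKM, log axis) of the 13 protein genes and 2 rRNA genes in their order along the mitochondrial genome, as mean and SD of the 4 untreated or 3 treated libraries of each group. MT-RNR2 was highest in every group, and MT-ND4L and MT-ND4 rose furthest from their untreated level in both combinations.

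Every tRNA gene lay below every protein gene per length. Mature mitochondrial tRNAs carry no poly(A) tail and their genes are short, so this order need not be that of the RNAs in the cell. The highest were MT-TP (694 ± 116 RPKM), MT-TL1 (650.3 ± 47.5), MT-TC (461 ± 110.2) and MT-TY (457 ± 31.3), which carry proline, leucine, cysteine and tyrosine and overlapped each other in this order. The next, MT-TL2, was at 206 ± 44.3, apart from MT-TY. The others that entered the tests ran from MT-TE at 139.9 ± 14.5 down to MT-TK at 4.04 ± 2.03. The tRNA genes for serine (MT-TS1, at most 15 reads) and aspartate (MT-TD, at most 19) stayed under a mean of 10 normalized counts, and MT-TN, for asparagine, had no read in any library, which allows up to 3 reads in each. So 34 of the 37 members, 19 of them tRNA genes, entered the tests, and all 13 protein genes and both rRNA genes were among them. Since MT-TC and MT-TY share a base, MT-TI and MT-TQ share bases on opposite strands, and MT-ATP8 with MT-ATP6 and MT-ND4L with MT-ND4 overlap on the same strand, the split of reads within these pairs is uncertain.

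The nuclear copies could have taken reads of the members. Of 404 such symbols, 5 reached a mean of 10 normalized counts (MTND1P23, MTND2P28, MTCO1P12, MTATP6P1 and MTND4P12), and all copies together held 0.819 to 1.04 reads per 100 mitochondrial reads. One library stood apart in them: AM80 replicate 2, the deepest, had 182 reads on MTND1P23, where the other 15 had 1 to 12. In that library MTCO1P12 had 1083 reads against 112 to 466 elsewhere.

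The share of all counted reads that fell on the 37 genes was 6.57, 6.21, 6.95 and 6.63% in the untreated libraries and 6.16, 6.02 and 6.39% with ATRA. It was 7.41, 7.53 and 6.48% with AM80, 7.78, 7.67 and 9.21% with ATRA and the inhibitors and 7.07, 7.84 and 7.88% with AM80 and the inhibitors. Both combinations lay wholly above the untreated libraries, with means of 8.22 ± 0.857% and 7.60 ± 0.453% (SD, n = 3) against 6.59 ± 0.306% (n = 4). ATRA at 6.19 ± 0.187% and AM80 at 7.14 ± 0.572% each overlapped the untreated range, and AM80 overlapped its combination while ATRA lay wholly below its own. The highest share, 9.21%, was that of ATRA_GSK-LSD1_MB3 replicate 3, and without it the mean of its group was 7.73%. Protein genes took 65.1 to 73.6% of the mitochondrial reads and the rRNA genes nearly all of the rest. The 22 tRNA genes together held 0.0212 to 0.0357% of all reads. A share is a sum over the members and has no test here.

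Against the protein genes the tRNA genes moved in another order. Per 1000 reads on protein genes the tRNA genes had 4.997, 4.97, 4.23 and 4.98 reads in the untreated libraries, 8.15, 6.08 and 7.50 with ATRA and 5.80, 6.34 and 5.82 with AM80. The same ratio was 4.89, 4.60 and 4.55 with ATRA and the inhibitors and 4.22, 4.96 and 4.01 with AM80 and the inhibitors. All 6 libraries with a retinoid alone were above all 10 others.

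**Figure D2:**
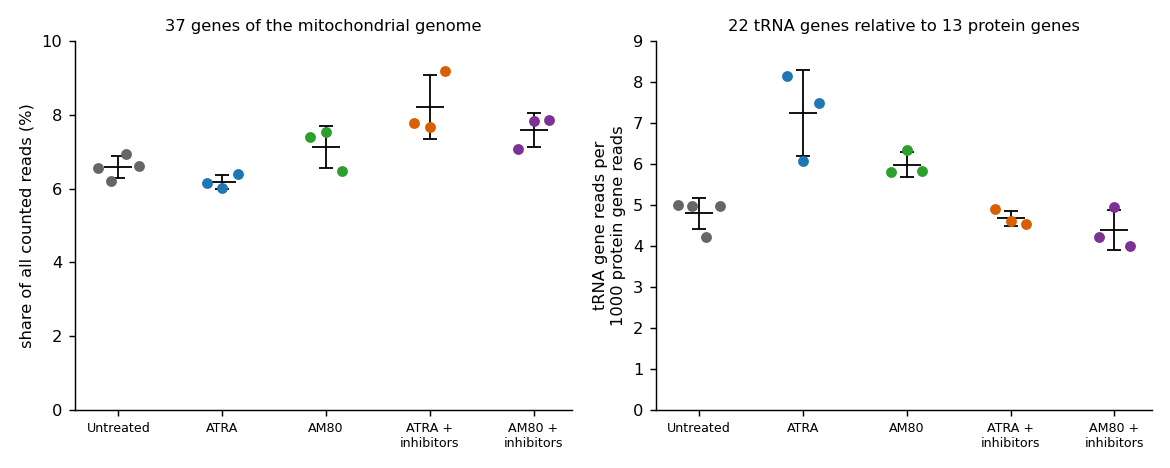
Left, percentage of all counted reads on the 37 mitochondrial genes, and right, reads on tRNA genes per 1000 reads on protein genes, for each library (points) with the mean and SD of its group. On the left both combinations stand above the untreated libraries, and on the right the 6 libraries with a retinoid alone stand above all others.

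Counts over many tRNA genes rose with both retinoids, and hardly any over protein or rRNA genes did. With ATRA, 15 of the 34 members tested were higher than in untreated cells, all of them tRNA genes, and none was lower, by limma with a Benjamini-Hochberg adjusted p under 0.05 over 14643 genes. Over all genes tested, 12.5% were called higher and 12.1% lower in that comparison. With AM80, 13 members were higher, 12 tRNA genes and MT-ND4L, and none lower, where all genes tested gave 15.4% higher and 13.4% lower. With a change over 1.5-fold as well, 12 and 9 members were higher, all tRNA genes, against 6.52% and 6.41% of all genes higher and 2.94% and 3.76% lower. The median change of the 19 tRNA genes was 0.82 with ATRA and 0.78 with AM80 on the log2 scale, and that of the 13 protein genes -0.051 and 0.17, beside −0.020 and −0.0051 over all genes. The calls with ATRA were 9 without ATRA replicate 1, and those with AM80 were 8 without AM80 replicate 2. Called with both retinoids were 11 tRNA genes, which is 11 of the 15 and 11 of the 13: MT-TF, MT-TV, MT-TL1, MT-TI, MT-TQ, MT-TM, MT-TR, MT-TH, MT-TS2, MT-TL2 and MT-TE. The 2 comparisons share their untreated libraries.

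MT-TS2, a tRNA for serine that lacks one of the usual arms, rose the most with ATRA. Its normalized counts were 64.1, 159, 49.8 and 112 in the untreated libraries, 304, 192 and 295 with ATRA and 262, 177 and 229 with AM80, so that all treated libraries were above all untreated ones. The log2 change was 1.56 ± 0.28 (SE), adjusted p = 0.00022 with ATRA, and 1.33 ± 0.28 (SE), adjusted p = 0.000979 with AM80 (limma). MT-TF, for phenylalanine, had 40.4, 68.3, 42.3 and 102 in untreated cells, 223, 94.0 and 225 with ATRA and 131, 183 and 128 with AM80. Here ATRA replicate 2 lay below the highest untreated library, and all others with a retinoid lay above it. The changes were 1.49 ± 0.31 (SE), adjusted p = 0.000883 and 1.29 ± 0.31 (SE), adjusted p = 0.00286. MT-TH, for histidine, was at 54.4, 79.4, 36.1 and 66.5 without compound, 182, 131 and 173 with ATRA and 143, 117 and 117 with AM80. Its groups did not overlap, and it had the smallest adjusted p of any member with ATRA (1.48 ± 0.20 (SE), adjusted p = 7.47e-06, and 1.12 ± 0.20 (SE), adjusted p = 0.000188 with AM80). MT-TR, for arginine, went from 39.0, 65.6, 23.7 and 44.3 to 105, 91.4 and 88.6 with ATRA and 65.9, 132 and 69.4 with AM80. It rose by 1.205 ± 0.26 and 1.04 ± 0.26 (adjusted p = 0.00148 and 0.00441), and the second was not called without AM80 replicate 2. MT-TL2 rose by 0.54 ± 0.13 and 0.38 ± 0.13 (adjusted p = 0.00505 and 0.0382), and its second call held in 19 of 28 alternatives and was lost, among others, on scaling to total reads and without Untreated replicate 3, Untreated replicate 4 or AM80 replicate 2.

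A neighbouring trio, MT-TI, MT-TQ and MT-TM (for isoleucine, glutamine and methionine), lies between MT-ND1 and MT-ND2 and rose with both retinoids from few reads. MT-TI had 23.7, 34.2, 24.9 and 35.5 normalized counts in untreated cells, 79.1, 32.8 and 81.4 with ATRA and 65.9, 64.7 and 70.2 with AM80. MT-TM had 12.6, 10.2, 16.2 and 17.7, then 49.2, 15.5 and 43.9 and 40.8, 47.1 and 34.7. In both, ATRA replicate 2 lay within the untreated range and the other 5 treated libraries lay above it. MT-TQ, on the minus strand, went from 6.97, 13.9, 14.9 and 15.5 to 32.8, 23.3 and 21.6 and 28.8, 30.0 and 15.9. The log2 changes with ATRA and AM80 were 1.01 ± 0.24 and 1.17 ± 0.24 for MT-TI, 0.99 ± 0.29 and 0.91 ± 0.29 for MT-TQ, and 1.17 ± 0.31 and 1.49 ± 0.31 for MT-TM (limma adjusted p = 0.00362, 0.000863, 0.0141, 0.0209, 0.00821 and 0.00101 in this order). MT-TQ lost its call with ATRA without Untreated replicate 1 or ATRA replicate 1, and with AM80 without Untreated replicate 1, AM80 replicate 1 or AM80 replicate 2. MT-TM lost its call with ATRA without ATRA replicate 1 or ATRA replicate 3.

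MT-TL1, MT-TV and MT-TE rose with both retinoids as well. MT-TL1, the leucine tRNA beside the 16S rRNA gene, had 839.5, 724, 873 and 859.7 normalized counts in untreated cells, 1243, 1026 and 1176 with ATRA and 1349, 1236 and 1058 with AM80, changes of 0.48 ± 0.11 and 0.56 ± 0.11 (adjusted p = 0.00233 and 0.000508). MT-TV, the valine tRNA between the rRNA genes, had 113, 87.7, 98.4 and 111, then 172, 155 and 172 and 234, 263 and 142, changes of 0.70 ± 0.20 and 1.01 ± 0.20 (adjusted p = 0.0111 and 0.00046). MT-TE, the glutamate tRNA of the minus strand, had 141, 169, 156 and 187, then 371, 220.0 and 291 and 223, 347 and 218, changes of 0.82 ± 0.16 and 0.66 ± 0.16 (adjusted p = 0.000615 and 0.00392). In none of the 3 did a library with a retinoid reach down to the untreated range. Called with ATRA alone were MT-TW, MT-TA (alanine), MT-TY and MT-TG, at 1.04, 0.88, 0.52 and 0.68, and MT-TC was called with AM80 alone, at 0.51. Their changes with the other retinoid ran the same way (0.59, 0.78, 0.41, 0.42 and, for MT-TC, 0.44) and did not pass the test. Several of these calls were unstable: that of MT-TA held in 9 of 27 alternatives, of MT-TG in 12 of 28 and of MT-TC in 16 of 28. No tRNA gene was called in the direct comparison of the retinoids given further on. The proline tRNA MT-TP, among the most abundant, stayed near its untreated level with ATRA (-0.017, 95% interval -0.30 to 0.27).

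No protein or rRNA gene was called with ATRA, and the changes of the 13 protein genes ran from -0.19 to 0.18 on the log2 scale. With AM80 they ran from 0.13 to 0.36, all 13 above 0, and MT-ND4L alone was called (0.36 ± 0.13, limma adjusted p = 0.05), at the threshold itself. It held in 10 of 28 alternatives. The rRNA gene MT-RNR2 changed by -0.12 with ATRA and 0.18 with AM80 (95% intervals -0.33 to 0.10 and -0.035 to 0.40).

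**Figure D3:**
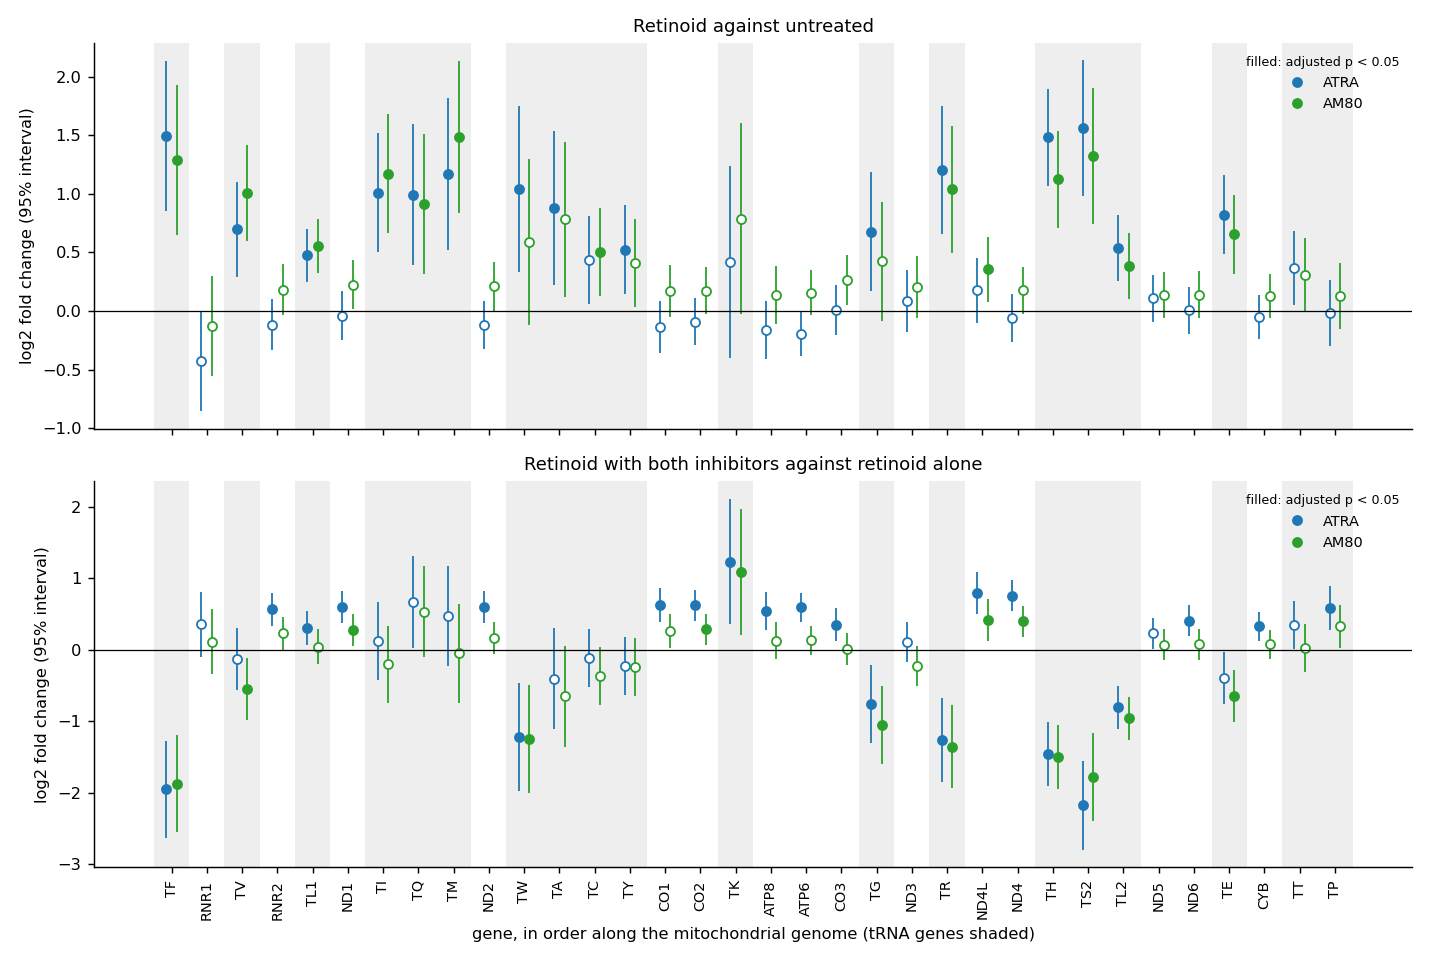
Log2 fold changes with 95% intervals (limma) of the 34 members tested, in gene order, for ATRA (blue) and AM80 (green), with tRNA genes shaded and filled points at an adjusted p under 0.05. In the upper panel (retinoid against untreated) nearly all filled points are tRNA genes above 0, and in the lower panel (combination against retinoid) MT-TF, MT-TW, MT-TG, MT-TR, MT-TH, MT-TS2 and MT-TL2 lie below 0 with both retinoids while MT-ND4L and MT-ND4 lie above it.

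When the inhibitors were added, 7 tRNA genes fell with either retinoid, while MT-ND1, MT-CO2, MT-ND4L, MT-ND4 and MT-TK rose. With ATRA, 15 of the 34 members were higher in the combination (11 protein genes, MT-RNR2, MT-TL1, MT-TK and MT-TP) and 7 were lower, all tRNA genes. All genes tested gave 24.9% higher and 24.4% lower. With AM80, 5 members were higher (MT-ND1, MT-CO2, MT-ND4L, MT-ND4 and MT-TK) and 9 lower, again all tRNA genes, beside 19.9% and 19.5% of all genes. Over 1.5-fold, 8 members were higher and 7 lower with ATRA, and 1 and 8 with AM80, where all genes gave 8.15% and 11.4%, and 6.81% and 8.9%. The median change of the protein genes was 0.59 with ATRA and 0.13 with AM80, that of the tRNA genes -0.23 and -0.55, and that of all genes −0.018 and −0.011. Without AM80_GSK-LSD1_MB3 replicate 3, the 14 calls with AM80 were 9. The 7 tRNA genes lower with ATRA were among the 9 lower with AM80 (MT-TV and MT-TE were the others), and the 5 members higher with AM80 were among the 15 higher with ATRA. Scaled to total reads in place of size factors, the median of all genes itself moved to −0.16 with ATRA and −0.13 with AM80. The members called were then 12 higher and 8 lower, and 1 higher and 11 lower. The 1 member still higher with AM80 was MT-ND4. Of the 14643 genes tested, 2225 were then higher and 5244 lower with ATRA, and 1837 and 4437 with AM80.

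MT-TS2 had the largest fall with ATRA and MT-TF with AM80. The MT-TS2 normalized counts were 65.4, 57.6 and 47.7 with ATRA and the inhibitors, against 304, 192 and 295 with ATRA, and 77.8, 61.9 and 52.8 with AM80 and the inhibitors, against 262, 177 and 229 with AM80. The change was -2.17 ± 0.30 (SE), adjusted p = 6.64e-06 and -1.78 ± 0.30 (SE), adjusted p = 7.84e-05, that is 4.51-fold and 3.43-fold lower. MT-TF came down from 223, 94.0 and 225 to 43.0, 56.5 and 31.8, and from 131, 183 and 128 to 48.2, 33.0 and 37.3, changes of -1.95 ± 0.33 and -1.87 ± 0.33 (adjusted p = 6.3e-05 and 0.000123). MT-TH had 66.4, 56.5 and 51.1 and 46.0, 46.7 and 38.6 with the inhibitors, changes of -1.46 ± 0.21 and -1.50 ± 0.21 (adjusted p = 1.42e-05 and 1.32e-05). In all 3 genes every library with the inhibitors was below every library with the retinoid alone.

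MT-TR and MT-TW changed by more than 2-fold as well. MT-TR had 46.9, 35.9 and 35.2 normalized counts with ATRA and the inhibitors and 29.6, 35.7 and 32.2 with AM80 and the inhibitors, changes of -1.26 ± 0.28 and -1.36 ± 0.28 (adjusted p = 0.000925 and 0.000617). MT-TW, with few reads, went from 74.2, 38.8 and 74.2 to 26.4, 16.3 and 36.4, and from 44.6, 48.2 and 38.3 to 8.77, 30.2 and 20.6, changes of -1.22 ± 0.36 and -1.25 ± 0.36 (adjusted p = 0.00865 and 0.00964). Its call was lost without ATRA_GSK-LSD1_MB3 replicate 2 or AM80_GSK-LSD1_MB3 replicate 1. The leucine tRNA MT-TL2 went from 378, 320.0 and 361 to 227, 208 and 173, and from 291, 362 and 299 to 159, 168 and 159.6, changes of -0.80 ± 0.14 and -0.96 ± 0.14 (adjusted p = 0.00013 and 2.38e-05). MT-TG went from 189.9, 134 and 125 to 118, 80.4 and 68.2, and from 124, 178 and 83.9 to 55.9, 59.1 and 61.8, changes of -0.76 ± 0.26 and -1.05 ± 0.26 (adjusted p = 0.0206 and 0.00304). No library overlapped between the groups compared in these 4 genes.

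**Figure D4:**
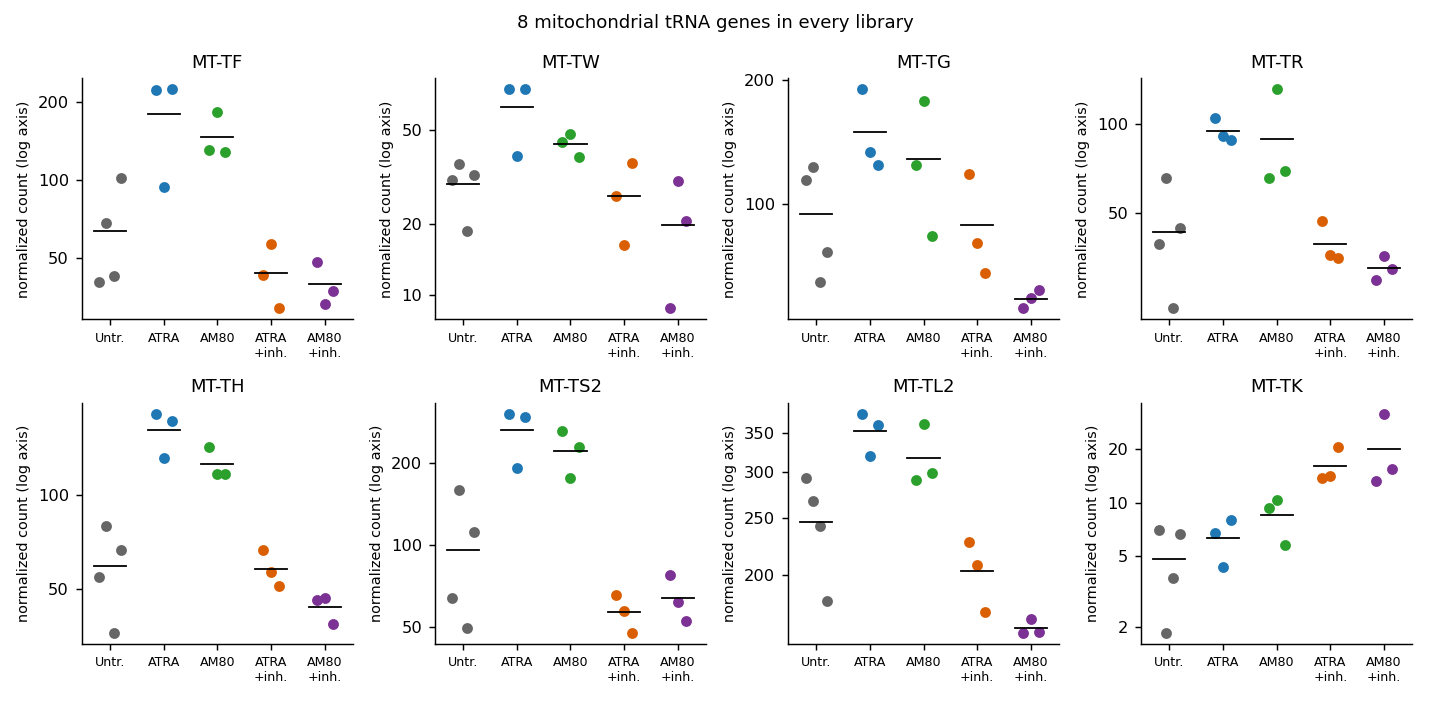
Normalized counts (log axis) of 8 tRNA genes in each of the 16 libraries, with the mean of each group as a line. In MT-TF, MT-TW, MT-TG, MT-TR, MT-TH, MT-TS2 and MT-TL2 every library with the inhibitors lies below every library with the same retinoid alone, and in MT-TK every one lies above.

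Against untreated cells 5 of these 7 tRNA genes did not pass the test in either combination. MT-TS2 stood at -0.61 with ATRA and -0.45 with AM80, MT-TF at -0.46 and -0.58, and MT-TH at 0.022 and -0.37, with limma adjusted p-values of 0.0634 to 0.934 over these 3 genes. Only MT-TL2 and MT-TG were called, both lower in the AM80 combination (-0.58 ± 0.13 (SE), adjusted p = 0.00114, and -0.62 ± 0.24 (SE), adjusted p = 0.0348). The MT-TG call held in 21 of 28 alternatives. It was lost, among others, without Untreated replicate 1 or 2 and without AM80_GSK-LSD1_MB3 replicate 1, 2 or 3. Summed over the 7 genes, the normalized counts were 478 to 799 in untreated libraries, 1001 to 1456 with ATRA and 966 to 1196 with AM80. They were 443 to 594 and 403 to 434 in the 2 combinations. The 7 genes were chosen because they fell from these same retinoid libraries, so the gap between retinoid and combination was built into the sum. The choice also favours genes with high values in those libraries, which bears on the gap to untreated cells. Depth moved with this pattern, the libraries with a retinoid alone being the deepest as a group. Its part in the result was not tested.

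Each of the 7 tRNA genes was set against a protein or rRNA gene near it, which for MT-TS2 was MT-ND4, beyond MT-TH. All 7 had a lower ratio of reads in every library of a combination than in every library with the same retinoid alone. They were chosen because they fell. MT-TH had 0.509 ± 0.181 reads for every 1000 of MT-ND4, the gene just before it, in untreated cells (SD, n = 4). This ratio was 1.43 ± 0.197 for ATRA and 0.941 ± 0.102 for AM80 (n = 3 each). Once the inhibitors were there it was 0.309 ± 0.0707 for ATRA and 0.250 ± 0.0324 for AM80. MT-TR had 4.51 ± 1.85, 9.36 ± 0.856, 7.74 ± 1.59, 3.66 ± 1.05 and 3.43 ± 0.178 reads per 1000 of MT-ND3 in the same order. MT-TG had 1.09 ± 0.430 reads per 1000 of MT-CO3 in untreated cells, 1.68 ± 0.486 for ATRA, 1.19 ± 0.412 for AM80, 0.797 ± 0.322 for the ATRA combination and 0.545 ± 0.0223 for the AM80 combination, and its highest library of the ATRA combination (1.15) lay above its lowest with AM80 (0.846). All 7 genes are on the plus strand, where 6 of the other 12 tRNA genes tested are. They are 59 to 71 bases long with a GC content of 23.1 to 45.8% (median 35.3%), and the other 12 are 66 to 75 bases with 28.99 to 48.6% (median 40.6%). These features were looked at after the 7 genes were known and have no test. Of the 6 minus-strand tRNA genes tested, MT-TE alone fell, with AM80 (-0.65 ± 0.17 (SE), adjusted p = 0.00537), and MT-TP alone rose, with ATRA (0.58 ± 0.14 (SE), adjusted p = 0.0024). MT-TV, on the plus strand, fell with AM80 too (-0.55 ± 0.21 (SE), adjusted p = 0.0411), from 234, 263 and 142 to 104, 179 and 148 normalized counts, which overlap, and that call held in 16 of 28 alternatives.

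Few other RNAs that are short or carry no poly(A) tail could be measured. In a list of 11 drawn up after the tRNA values were seen (RN7SK, RN7SL1, RN7SL2, RMRP, RPPH1, TERC, SCARNA2, RNU4-2 and the histone genes H4C3, H2AC6 and H1-4), 5 passed the filter. None was called with ATRA, and H2AC6 alone was called higher with AM80 (0.61) and on adding the inhibitors (1.30 with ATRA and 1.002 with AM80). RN7SL1, the RNA of the signal recognition particle, was at -0.24 with ATRA and 0.26 with AM80 on the log2 scale, and at -0.93 and -0.57 on adding the inhibitors. RMRP, an RNA of ribonuclease MRP, was at -1.26 and -1.40 with the retinoids and at -0.65 and 0.96 on adding the inhibitors. None of the changes of RN7SL1 and RMRP passed the test in these 4 comparisons, where the smallest limma adjusted p was 0.186. Of the other histone genes, H1-4 was called lower in the ATRA combination than in untreated cells (-2.33) and H4C3 in no comparison.

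MT-TK, for lysine, rose with the inhibitors while its reads were very few. Its normalized counts were 6.97, 1.85, 3.74 and 6.65 in untreated libraries, 6.75, 4.31 and 7.92 with ATRA and 9.28, 10.4 and 5.79 with AM80. They were 13.7, 14.1 and 20.5 with ATRA and the inhibitors and 13.2, 31.6 and 15.4 with AM80 and the inhibitors, from 2 to 23 reads per library in all. Every library with the inhibitors was above every other. The change on adding them was 1.23 ± 0.42 (SE), adjusted p = 0.0196 with ATRA and 1.09 ± 0.42 (SE), adjusted p = 0.0453 with AM80, and against untreated cells it was 1.65 ± 0.39 (SE), adjusted p = 0.00116 and 1.88 ± 0.39 (SE), adjusted p = 0.000405. The call against AM80 held in 14 of 26 alternatives, and that against ATRA in 23 of 26.

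Among the other tRNA genes, MT-TI, MT-TQ and MT-TM stayed above untreated cells in both combinations, with log2 changes of 1.13, 1.66 and 1.64 with ATRA and 0.97, 1.45 and 1.43 with AM80, all 6 called and all 6 with every library above the untreated ones. All genes tested gave 30.2% higher in the ATRA combination and 28% in the AM80 combination. How many of them had no overlap of libraries was not counted. Adding the inhibitors changed none of these 3 tRNA genes past the test. MT-TQ, for example, had 32.2, 60.9 and 35.2 and 35.1, 37.1 and 33.5 normalized counts in the combinations, and differed from the retinoid alone by 0.67 (95% interval 0.028 to 1.31) and 0.53 (-0.11 to 1.17). MT-TL1 was higher than in untreated cells by 0.78 ± 0.11 and 0.60 ± 0.11 (limma adjusted p = 3.71e-06 and 9.7e-05), and MT-TP by 0.57 ± 0.14 and 0.45 ± 0.14 (adjusted p = 0.0012 and 0.00768). MT-TP, at 591, 828, 849 and 923 in untreated cells and 974, 1181 and 1379.9 and 949, 1163 and 1134 in the combinations, was called higher in the combinations and not with a retinoid alone, as MT-TK was. MT-TT, for threonine, was called only in the ATRA combination against untreated cells (0.72 ± 0.15 (SE), adjusted p = 0.000374).

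Against untreated cells 22 members were higher in the ATRA combination (12 protein genes, MT-RNR2 and 9 tRNA genes) and none was lower, beside 30.2% and 30% of all genes tested. In the AM80 combination 15 were higher (8 protein genes, MT-RNR2 and 6 tRNA genes) and 2 lower (MT-TG and MT-TL2), beside 28% and 26.6%. All 15 were among the 22, and the untreated libraries are shared. Over 1.5-fold, 8 were higher and none lower in the first, and 6 higher and 1 lower in the second, where all genes gave 14.2% and 14.8%, and 12.9% and 13.1%. Scaled to total reads, the medians of all genes were −0.15 and −0.19, and the members called were 16 higher and 2 lower, and 11 higher and 5 lower. Of the 14643 genes tested, 3159 were then higher and 5860 lower in the ATRA combination, and 2636 and 6028 in the AM80 combination.

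Complex I, the NADH dehydrogenase that feeds electrons into the chain, has 7 mitochondrial subunits, of which MT-ND4L and MT-ND4 had the largest changes on adding the inhibitors. MT-ND4L had normalized counts of 12584, 16006, 17149.8 and 17139.5 in the untreated libraries, 16824, 17335 and 18807 with ATRA, 21348, 23293 and 15973 with AM80, 25822, 29301 and 37308 with ATRA and the inhibitors, and 23554, 29786 and 27006 with AM80 and the inhibitors. The inhibitors raised it by 0.79 ± 0.14 with ATRA and 0.42 ± 0.14 with AM80 on the log2 scale (adjusted p = 0.000133 and 0.0238), and it was 1.95-fold and 1.71-fold above untreated cells, with no overlap of the libraries. MT-ND4 had normalized counts of 108277, 112719, 133619.7 and 118929.9 in the untreated libraries, 114024, 108109 and 117071 with ATRA, 141112, 141294 and 118832 with AM80, 177914, 176703 and 219404 with ATRA and the inhibitors, and 164883, 183552 and 179696 with AM80 and the inhibitors. It rose by 0.75 ± 0.10 and 0.40 ± 0.10 (adjusted p = 7.92e-06 and 0.00464), and all libraries with the inhibitors were above all others. MT-ND1 had normalized counts of 53911, 58969.8, 66870.3 and 61785 in the untreated libraries, 57006, 56295 and 62762 with ATRA, 74188, 74576 and 63064 with AM80, 80184, 82334 and 105445 with ATRA and the inhibitors, and 79519.7, 88739.8 and 87312 with AM80 and the inhibitors. MT-ND1 rose by 0.60 ± 0.11 and 0.27 ± 0.11 (adjusted p = 0.000113 and 0.0454), and the second call held in 14 of 28 alternatives. With AM80, MT-ND4L kept its call in 22 of 28 alternatives. It was lost, among others, on scaling to total reads and without AM80 replicate 3, AM80_GSK-LSD1_MB3 replicate 2 or AM80_GSK-LSD1_MB3 replicate 3.

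MT-ND2 had normalized counts of 33273, 38072, 42586 and 40754 in the untreated libraries, 35644, 34199 and 36652 with ATRA, 44209.8, 51935 and 38612 with AM80, 50143, 51348 and 60105 with ATRA and the inhibitors, and 46765, 49327 and 54134 with AM80 and the inhibitors. MT-ND2 rose with ATRA (0.60 ± 0.11, adjusted p = 0.000118), and with AM80 the difference was 0.16 (95% interval -0.057 to 0.39). MT-ND3 had normalized counts of 7973, 9510.3, 9069 and 12216 in the untreated libraries, 10626, 9321 and 10587 with ATRA, 10209, 13827 and 9576 with AM80, 9686, 10720.5 and 12575 with ATRA and the inhibitors, and 8779.7, 9830.2 and 9763 with AM80 and the inhibitors. MT-ND3, which lies between MT-TG and MT-TR, was called in no comparison, with differences of 0.11 (-0.18 to 0.39) and -0.23 (-0.51 to 0.055) on adding the inhibitors. MT-ND5 had normalized counts of 54516, 58135, 63905 and 48826 in the untreated libraries, 65570.2, 60062 and 56038 with ATRA, 62748, 66019 and 56584 with AM80, 65997, 69319 and 77433 with ATRA and the inhibitors, and 59340.2, 65073 and 70614 with AM80 and the inhibitors. MT-ND5 differed by 0.23 (0.016 to 0.44) and 0.073 (-0.14 to 0.28), and was called only in the ATRA combination against untreated cells (0.34 ± 0.095 (SE), adjusted p = 0.00463). MT-ND6 had normalized counts of 14115, 14304, 15082 and 13358 in the untreated libraries, 16207, 13082 and 13655 with ATRA, 14864, 18490.0 and 13911 with AM80, 18014, 17308 and 21415 with ATRA and the inhibitors, and 15128, 17152 and 17185 with AM80 and the inhibitors. MT-ND6 rose with ATRA (0.40 ± 0.10, adjusted p = 0.00325) and was at 0.074 (-0.14 to 0.29) with AM80.

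Complex III, which passes electrons on to cytochrome c, has MT-CYB alone. MT-CYB had normalized counts of 38644, 42941, 47879.6 and 47172 in the untreated libraries, 41684, 42314 and 43392 with ATRA, 50140.1, 50358 and 44036 with AM80, 48373, 51719 and 60239 with ATRA and the inhibitors, and 46784, 51319.9 and 53981 with AM80 and the inhibitors. It rose by 0.33 ± 0.10 with ATRA (adjusted p = 0.00779) and was at 0.074 (-0.12 to 0.27) with AM80. The call was lost when counts were scaled to total reads and without ATRA_GSK-LSD1_MB3 replicate 3.

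Complex IV, cytochrome c oxidase, has MT-CO1, MT-CO2 and MT-CO3, which hold its catalytic core. MT-CO1 had normalized counts of 167269.5, 175510.1, 195343 and 210443 in the untreated libraries, 160368, 168875 and 180815 with ATRA, 228508, 213481 and 190159 with AM80, 237309.5, 248329 and 306579.8 with ATRA and the inhibitors, and 234848, 270343 and 253920.1 with AM80 and the inhibitors. MT-CO1 rose by 0.63 ± 0.11 with ATRA (adjusted p = 0.000144), and with AM80 the difference was 0.27 (0.028 to 0.50), though all 3 libraries with the inhibitors were above the 3 with AM80. MT-CO2 had normalized counts of 60302, 62063, 69715 and 76704 in the untreated libraries, 62358, 60056 and 66308 with ATRA, 80332, 76756 and 69435 with AM80, 87569, 92313 and 111026 with ATRA and the inhibitors, and 85501, 96955 and 93799.7 with AM80 and the inhibitors. MT-CO2 rose by 0.62 ± 0.10 and 0.29 ± 0.10 (adjusted p = 5.94e-05 and 0.0317), and the second call held in 20 of 28 alternatives. It was lost, among others, on scaling to total reads and without AM80 replicate 3, AM80_GSK-LSD1_MB3 replicate 2 or AM80_GSK-LSD1_MB3 replicate 3. MT-CO3 had normalized counts of 79647, 82715, 90264 and 106829 in the untreated libraries, 85433, 87422 and 96761 with ATRA, 115294, 107900.4 and 99223 with AM80, 102416, 113067 and 129479 with ATRA and the inhibitors, and 99329, 113607 and 111788 with AM80 and the inhibitors. MT-CO3 rose with ATRA (0.35 ± 0.11, adjusted p = 0.0123), a call that held in 23 of 28 alternatives and was lost, among others, on scaling to total reads and without ATRA_GSK-LSD1_MB3 replicate 3, with a value of -0.11 after quantile normalization, and with AM80 stood at 0.010 (-0.22 to 0.24).

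Complex V, the ATP synthase, has MT-ATP6 and MT-ATP8, read from overlapping frames of 1 mRNA. MT-ATP6 had normalized counts of 64014, 65944, 74910.2 and 68963 in the untreated libraries, 59665, 56773 and 62921 with ATRA, 77343, 86531 and 65897 with AM80, 88762, 83164 and 99326 with ATRA and the inhibitors, and 78095, 85570.3 and 86470.3 with AM80 and the inhibitors. MT-ATP8 had normalized counts of 18798, 19579, 19711 and 21246 in the untreated libraries, 18306, 15381 and 19732 with ATRA, 21563, 26258 and 18396 with AM80, 24091, 22323 and 31937 with ATRA and the inhibitors, and 22000.3, 25782 and 23935 with AM80 and the inhibitors. Both rose with ATRA, by 0.59 ± 0.10 and 0.54 ± 0.13 (adjusted p = 5.45e-05 and 0.00145), and neither was called with AM80, at 0.13 (-0.075 to 0.33) and 0.13 (-0.14 to 0.39). The reads of MT-ATP8 per 100 of MT-ATP6 were 29.4, 29.7, 26.3 and 30.8 in untreated libraries and had means of 28.7 to 29.7 in the other groups.

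Most calls of protein genes against ATRA held on scaling to total reads, and most against AM80 did not. Against ATRA, MT-CO3 and MT-CYB lost their calls under it, and the other protein genes called and MT-RNR2 kept theirs. Against AM80, MT-ND4 kept its call and MT-ND1, MT-CO2 and MT-ND4L lost theirs. Under quantile normalization, which gives every library the same set of values by rank, none of MT-RNR2, MT-ND1, MT-CO1, MT-CO2, MT-ATP6, MT-CO3, MT-ND4, MT-ND6 and MT-CYB kept its call against ATRA, and MT-CO3 and MT-CYB turned below 0 (−0.11 and −0.086). MT-ND2, MT-ATP8 and MT-ND4L kept theirs. Of the 10 genes with the most reads, 6 are members. MT-ND6, with a mean of 15829 normalized counts, lost its call, while MT-ND2 (44235), MT-ND4L (21827) and MT-ATP8 (21815) kept theirs. Why calls were lost under quantile normalization was not tested.

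The 2 rRNA genes, the RNA of the mitochondrial ribosome, are cut from the same promoter-near transcript. MT-RNR2 had normalized counts of 333358, 250915, 299004 and 291595 in the untreated libraries, 276200.0, 244979 and 289919.8 with ATRA, 354466, 337563 and 304519 with AM80, 391355, 374383 and 430686 with ATRA and the inhibitors, and 370935, 404701 and 392125 with AM80 and the inhibitors. MT-RNR2 rose by 0.56 ± 0.11 on adding the inhibitors to ATRA (adjusted p = 0.00034), was at 0.23 (-0.0014 to 0.46) with AM80, and was higher than in untreated cells in both combinations (0.45 and 0.41). MT-RNR1 had normalized counts of 45589, 16709, 19805 and 21149 in the untreated libraries, 18004, 16346 and 18658 with ATRA, 22742, 23052 and 19573 with AM80, 21570.1, 21707 and 24546 with ATRA and the inhibitors, and 21643, 23319 and 25526 with AM80 and the inhibitors. MT-RNR1 was called in no comparison, and Untreated replicate 1 was high in it. Per 100 reads of MT-RNR2 it had 13.7, 6.66, 6.62 and 7.25 reads in the untreated libraries, and 5.51 to 6.83 in all treated ones.

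ATRA and AM80 are both retinoids given at 0.1 µM for 3 h, ATRA the natural acid that activates all retinoic acid receptors and AM80 a synthetic agonist that prefers RARα. They were compared directly without and with the inhibitors, and by the interaction of retinoid and inhibitors, 3 comparisons of 34 members each with p-values adjusted over all 14643 genes. No member was called in any of them, by limma, where 0.184% of all genes were higher and 0.0546% lower with AM80 than with ATRA, 0% and 0% between the combinations, and 0% and 0% in the interaction. At an unadjusted p under 0.05 there were 9, 4 and 10 of the 34 members, beside 13.9%, 18.1% and 15.1% of all genes. Between AM80 and ATRA, DESeq2 called 2 members higher with AM80, edgeR none, limma without AM80 replicate 3 called 2 and without Untreated replicate 4 called 1. Between the combinations limma fitted on these 6 libraries alone called 4 members lower with AM80, and edgeR and DESeq2 called none there and none in the interaction. The share of all genes called was not counted for these other fits, so their member counts cannot be set against it.

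All 13 protein genes had AM80 above ATRA, by 0.029 to 0.35 on the log2 scale (median 0.26), beside a median of 0.0053 over all genes. MT-ATP6 came nearest to a call, at 0.35 ± 0.10 (95% interval 0.15 to 0.55, adjusted p = 0.116). In the tRNA genes the differences ran from -0.45 to 0.37, with intervals of -0.85 to 0.39 for MT-TS2, -0.89 to 0.48 for MT-TF and -0.80 to 0.087 for MT-TH. A level 1.5-fold lower with AM80 lies inside all 3 of these intervals, so they do not show that the retinoids act alike. Between the combinations the protein genes ran from -0.21 to -0.055 and the tRNA genes from -0.55 to 0.22. In the interaction, the addition of the inhibitors to AM80 less that to ATRA, all 13 protein genes were below 0 (-0.46 to -0.15, median -0.34), the widest for MT-ATP6 (-0.46, -0.75 to -0.17, adjusted p = 0.226). The inhibitor effects on the 11 protein genes called with ATRA and the 4 called with AM80 are therefore not shown to differ between the retinoids.

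Few nuclear subunits of the same complexes rose in the combinations. Of 77 nuclear genes of complexes I to V, all tested, 6 were higher and 35 lower in the ATRA combination than in untreated cells, with a median of -0.22 and beside 30.2% higher and 30% lower of all genes, where the 13 mitochondrial genes had 12 higher and a median of 0.41. In the AM80 combination 8 were higher and 8 lower (median -0.012, with 28% and 26.6% of all genes), beside 8 higher of the 13 (median 0.29), and the median of all genes was −0.0030 and −0.0029. Beside 24.9% higher and 24.4% lower of all genes, 6 of the 77 rose and 19 fell on adding the inhibitors to ATRA. With AM80, where all genes gave 19.9% and 19.5%, 2 of the 77 rose and 6 fell. Among those that moved with both retinoids were NDUFC2 (0.56 and 0.31) and NDUFB5 (0.55 and 0.26) upward and NDUFV1 (-0.49 and -0.27), which binds NADH, downward in complex I. CYC1, cytochrome c1 of complex III, fell by 0.65 and 0.35, and COX5B of complex IV by 0.43 and 0.41. With the retinoids alone 1 rose and 4 fell with ATRA, beside 12.5% and 12.1% of all genes, and 7 and 1 with AM80, beside 15.4% and 13.4%.

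**Figure D5:**
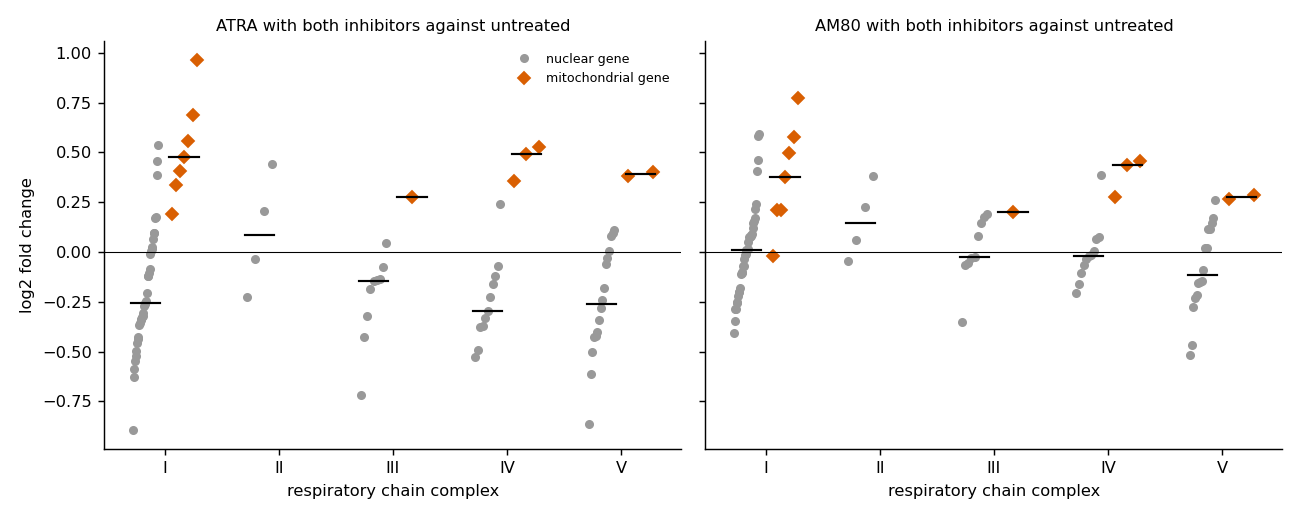
Log2 fold changes against untreated cells of the nuclear genes (grey circles) and mitochondrial genes (orange diamonds) of the 5 complexes of oxidative phosphorylation, in the ATRA (left) and AM80 (right) combination, with medians as lines. Complex II has no mitochondrial gene, and in complexes I, III, IV and V the mitochondrial median lies above the nuclear one in both panels.

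For genes that make or handle mitochondrial RNA, counts are read against the 24.9% higher and 24.4% lower of all genes on adding the inhibitors to ATRA, and the 19.9% and 19.5% on adding them to AM80. Of 16 genes of transcription and replication, 3 rose and 6 fell when the inhibitors were added to ATRA, and 1 and 6 with AM80. POLRMT, the mitochondrial RNA polymerase, fell by 0.89 and 0.56, and was at -1.14 and -0.87 against untreated cells, while TFAM, the factor that packs the genome and starts its transcription, rose by 0.43 and 0.22. TOP1MT, the mitochondrial topoisomerase, rose with the retinoids (0.56 and 0.54) and fell on adding the inhibitors (-0.61 and -0.41), and was not called against untreated cells in the combinations (-0.042 and 0.13). Of 38 genes of RNA processing, modification and decay, 10 rose and 11 fell with ATRA, and 4 and 10 with AM80. MRM1, a methyltransferase of 16S rRNA, fell by 1.86 and 2.09. The tRNA modifiers went apart, with GTPBP3 down (-0.74 and -0.51) and its partner MTO1 up (0.66 and 0.64), and NSUN3, which modifies the methionine tRNA, up as well (0.63 and 0.43).

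Of the 18 tRNA synthetase genes tested, 3 rose and 6 fell with ATRA, and 2 and 6 with AM80. MARS2 (-0.69 and -0.77) and TARS2 (-0.69 and -0.67), for methionine and threonine, fell, and GARS1 (0.49 and 0.40), for glycine, rose. Of 77 genes of mitochondrial ribosomal proteins tested, 7 were higher and 44 lower than in untreated cells in the ATRA combination (median -0.28), and 8 and 30 in the AM80 combination (median -0.14), where all genes gave 30.2% and 30%, and 28% and 26.6%. MRPL34 (-1.03 and -0.95) and MRPS26 (-1.02 and -0.81) fell on adding the inhibitors, and MRPL18 (0.69 and 0.85) and MRPS5 (0.55 and 0.86) rose. Of 10 regulators of mitochondrial biogenesis tested, 5 rose and 4 fell with ATRA, and 4 and 3 with AM80. Both subunits of NRF-2 rose, GABPA (0.65 and 0.44) and GABPB1 (0.77 and 0.56), and the receptor ESRRA (-1.04 and -0.68) and the coactivator PPARGC1B (-0.85 and -0.92) fell.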

How the data were processed

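RNA-seq was done on 16 OCI-AML3 libraries in 5 groups. The deposited signal values are counts per gene that the authors divided by DESeq2 size factors. The submitters' processing notes name FastQC, cutadapt, STAR, featureCounts and DESeq2. The genome build, the annotation and the strand setting are not given in the sources used here. The study's methods and the labels name different RNA and library kits, so the selection for poly(A) RNA rests on the methods alone. Whole reads were recovered from the smallest positive value of each library (100.0% of values whole within 0.0001 reads), and they gave depth, shares and RPKM. The limits on precision are thus counting error in rows of few reads and the spread between 3 or 4 libraries.

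The 14643 of 62700 genes whose normalized counts averaged 10 or more were tested on log2(normalized count + 1) with limma 3.58.1 in R 4.3.3 (trend, not robust), 1 coefficient per group over all 16 libraries, with Benjamini-Hochberg adjusted p under 0.05 as the call and a change over 1.5-fold as a second rule. Log2 changes are on that scale and understate those of low genes. SEs and 95% intervals come from the same fit. Whether the libraries of 2 groups overlap is given for members only and was not counted over all genes. Coordinates and sequences are those of GENCODE 29 (GRCh38), which holds all 37 IDs in the same version. No replicate pair differed by as little as sampling noise. The test script was tried on simulated data. Alternatives were pseudocounts of 0.5 and 5, no filter and a mean of 50, other scalings, only the groups compared, edgeR 4.0.16 and DESeq2 1.42.0 on recovered reads, a replicate block and each library left out. All members are named, protein and rRNA genes with every library, tRNA genes where called or most counted, and from each nuclear list up to 2 genes in each direction called on adding the inhibitors to both retinoids. The members and lists were chosen with earlier results of these data known, and the list of short or non-polyadenylated RNAs after the tRNA values were seen. A few genes that these rules name are not reported here.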

Additional observations from a re-analysis of the deposited data

Results flagged for a closer look

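Among 42 measures of the mitochondrial genes tested in the 4 untreated libraries, 3 had a library far from the rest, by a gap over the range above Dixon's 95% critical value for 4 samples. Chance sets apart about 1 in 20 such groups. MT-RNR1 had 45589 normalized counts in Untreated replicate 1 (gap over range 0.846). The same library had 13.7 reads of MT-RNR1 per 100 of MT-RNR2 (0.911). In Untreated replicate 3 the tRNA genes had 4.23 reads per 1000 reads on protein genes, below the other untreated libraries (0.962).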

How the results depend on the processing

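Of 2864 values of 103 called changes of single genes under the alternatives, 2589 kept direction and call, 265 lost the call and 10 changed sign, all 10 under quantile normalization. These were MT-CO3 (-0.11) and MT-CYB (-0.086) for the ATRA combination against ATRA, MT-ND1 (-0.059) and MT-CO2 (-0.096) for the AM80 combination against AM80, MT-ATP6 (-0.053), MT-ND5 (-0.033) and MT-CYB (-0.050) for the ATRA combination against untreated cells, and MT-CO2 (-0.0027), MT-ATP6 (-0.21) and MT-CO3 (-0.16) for the AM80 combination against untreated cells. Under it the members called were 14 in place of 22, 12 of 22 and 11 of 17 for the ATRA combination against ATRA, the ATRA combination against untreated cells and the AM80 combination against untreated cells. All 14643 genes tested then gave 3402 higher and 3552 lower, 4055 and 4561, and 3575 and 4291 in the same order. With the 1.5-fold limit they were 9 of 14 for the AM80 combination against AM80, and 8 of 22 and 7 of 17 for the combinations against untreated cells. Between AM80 and ATRA, DESeq2 called 2. Between the combinations, the fit on these groups alone called 4. For both, the share of all genes called was not counted. The cause was not tested.

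The replicate block called 1 member between AM80 and ATRA and moved no other count of calls by over 1.5 times. The numbers did not pair the libraries: same-numbered libraries correlated from -0.11 to 0.19 (median -0.0050), over 0.1 in 4 of 30 pairs.

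Leaving out 1 library gave 9 to 16 calls with ATRA, 8 to 19 with AM80, 17 to 24 and 9 to 16 on adding the inhibitors to each, 18 to 25 and 15 to 23 for the combinations against untreated cells, 0 to 2 between the retinoids and 0 in the other 2 comparisons. The share of all genes called was not counted for these fits or for the replicate block.

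With the 13 protein genes alone the shares were 4.67% (untreated), 4.45% (ATRA), 5.10% (AM80), 5.94% and 5.42% (their combinations), and without the 2 rRNA genes 4.70%, 4.48%, 5.13%, 5.97% and 5.44%. Depth limits the rows of few reads, MT-TK (2 to 23 reads) above all.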
